A study of Mus musculus with 12 samples.

Results

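The genes described are 10 transcriptional targets of p53: Pmaip1, Bbc3, Bax, Perp, Cdkn1a, Ccng1, Gadd45a, Mdm2, Trp53inp1 and Phlda3. They were taken by name from a deposited table of 26061 genes, and all 10 were among the 14487 genes kept for testing. RNA depleted of ribosomal RNA was sequenced from E14 mouse embryonic stem cells (129/Ola background) carrying a lentiviral short hairpin RNA in either of 2 media. The design asks what depletion of Setdb1, which encodes an H3K9 methyltransferase, does to transcripts in each medium, and how the media differ.

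The 4 groups of 3 libraries were 2i cells with the hairpin against Setdb1 (shSetdb1), 2i cells with a scrambled hairpin (shScr), serum cells with shSetdb1 and serum cells with shScr. The 2i medium, which the submitters call naive, contained N2, B27 and LIF together with PD0325901, an inhibitor of MEK, and CHIR99021, an inhibitor of GSK3. Serum medium, called primed by the submitters, contained 15% fetal bovine serum and LIF. All cells grew without feeders and had passed through infection and 3 days of puromycin at 1 µg/ml, begun 48 h after infection, so the shScr cells carry that treatment as well. There was no uninfected group, no rescue of Setdb1 and no label for another hairpin, so loss of Setdb1 and anything else this hairpin does cannot be told apart. Nothing in the labels says whether libraries of a group came from separate cultures. The p-values therefore reflect only how far these samples scatter, and that scatter may be technical.

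p53, encoded by Trp53, is a transcription factor that is stabilised by DNA damage and other stress. It binds pairs of short palindromic half-sites and raises genes that start apoptosis, stop the cell cycle or repair DNA. One of its targets, Mdm2, encodes the ubiquitin ligase that marks p53 for destruction, which closes a feedback loop. Mouse embryonic stem cells have a short G1 phase and are known to contain much p53 protein.

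The stretches below are the parts of the members' promoter windows that contain a match to the p53 half-site, a consensus of 10 letters that reads the same on both strands. They are shown because p53 binds pairs of such half-sites. A single match is not such a pair, and binding by p53 was not measured. Sequences are from RefSeq on GRCm38.p6, a different build from the mm9 of the expression data, and each window ran from 250 bases before to 50 after a transcription start. The table held windows for 7 of the 10 genes, 10 windows in all, and named none for Pmaip1, Perp or Trp53inp1. Capitals mark the half-sites, which are shown 5′ to 3′ on the strand of the gene with 15 bases on each side. Cdkn1a had a pair of half-sites, at chr17:29090891-29090952 on the plus strand. They began 73 and 51 bases before the more upstream of its transcription starts with a window. Only exact matches are marked, and the letters directly after the second half-site come close to the consensus without matching it. Gadd45a had one 40 bases before its start, at chr6:67037423-67037462 on the minus strand. Bax had one 201 bases before its start, at chr7:45467075-45467114 on the minus strand. Mdm2 had one 186 bases before its start, at chr10:117710920-117710959 on the minus strand. Ccng1 had one 185 bases before its start, at chr11:40755447-40755486 on the minus strand.
Cdkn1a: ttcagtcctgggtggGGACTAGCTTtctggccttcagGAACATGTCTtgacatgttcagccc
Gadd45a: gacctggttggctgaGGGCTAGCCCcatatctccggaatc
Bax: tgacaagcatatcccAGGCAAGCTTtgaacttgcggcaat
Mdm2: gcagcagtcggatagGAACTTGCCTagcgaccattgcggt
Ccng1: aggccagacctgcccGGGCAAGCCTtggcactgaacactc

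At least 1 half-site lay in the windows of 5 of the 7 members (71.4%), against 2582 of 27025 genes with a window (9.55%) and 2745 of 32851 windows (8.36%). A pair with a spacer of at most 13 bases, which Cdkn1a had with a spacer of 12, was found in 20 of the 27025 genes (0.074%). No half-site was found in the windows of Bbc3 and Phlda3 or in a second window of Cdkn1a. Among 30 other p53 target genes with a window, 6 had a half-site (20%), and among 16 mitotic genes 2 did (12.5%). Only exact matches were counted, and they describe letters in these windows only. The members were chosen as known p53 targets, so their share is not an independent finding about p53.

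Gene reads per library ranged from 4821181 to 15509401, and the shallowest library was shSetdb1 replicate 3 in 2i. The hairpin's target, Setdb1, had 837, 610.2 and 340.1 normalised reads in shSetdb1 cells in 2i, against 3607, 2724 and 2253 in shScr cells in 2i. In serum it had 418.3, 379 and 409.4 in shSetdb1 cells, against 2959, 2237 and 1587 in shScr cells. It fell in both media (limma, log2 change -2.24, adjusted p = 0.00173 in 2i, and -2.33, adjusted p = 0.00219 in serum). All 10 pluripotent stem cell markers had reads, with sums of 38896 to 81196 normalised reads per library. Primitive endoderm, trophoblast and neural markers each summed to between 331 and 1613 per library, and the trophoblast marker Elf5 had no read. Structural RNA, meaning families of ribosomal, transfer and other small structural RNA in the repeat table, made up a share of the repeat reads that was highest in replicate 3 of every group. That share was 69.5% in replicate 3 of the 2i shSetdb1 cells, 64.6% in 2i shScr, 42.6% in serum shSetdb1 and 48.3% in serum shScr, and 15.6% to 55.5% in the other 8 libraries.

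Levels of the 10 genes differed widely. Expressed as mean normalised reads per kilobase of exon, Ccng1 was highest in every group, at 4887 in 2i shSetdb1 cells, 3346 in 2i shScr, 4477 in serum shSetdb1 and 3659 in serum shScr. Trp53inp1 followed with group means of 1224 to 1755, and Mdm2 and Bax lay between 439 and 956. The lowest level per kilobase was that of Pmaip1 in 2i shScr cells, at 12.8, although Pmaip1 reached 546 in serum shSetdb1 cells. Pmaip1 also covered the largest range of group means, 4.38 on the log2 scale, against 0.41 for Phlda3 at the other end.

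**Figure D1:**
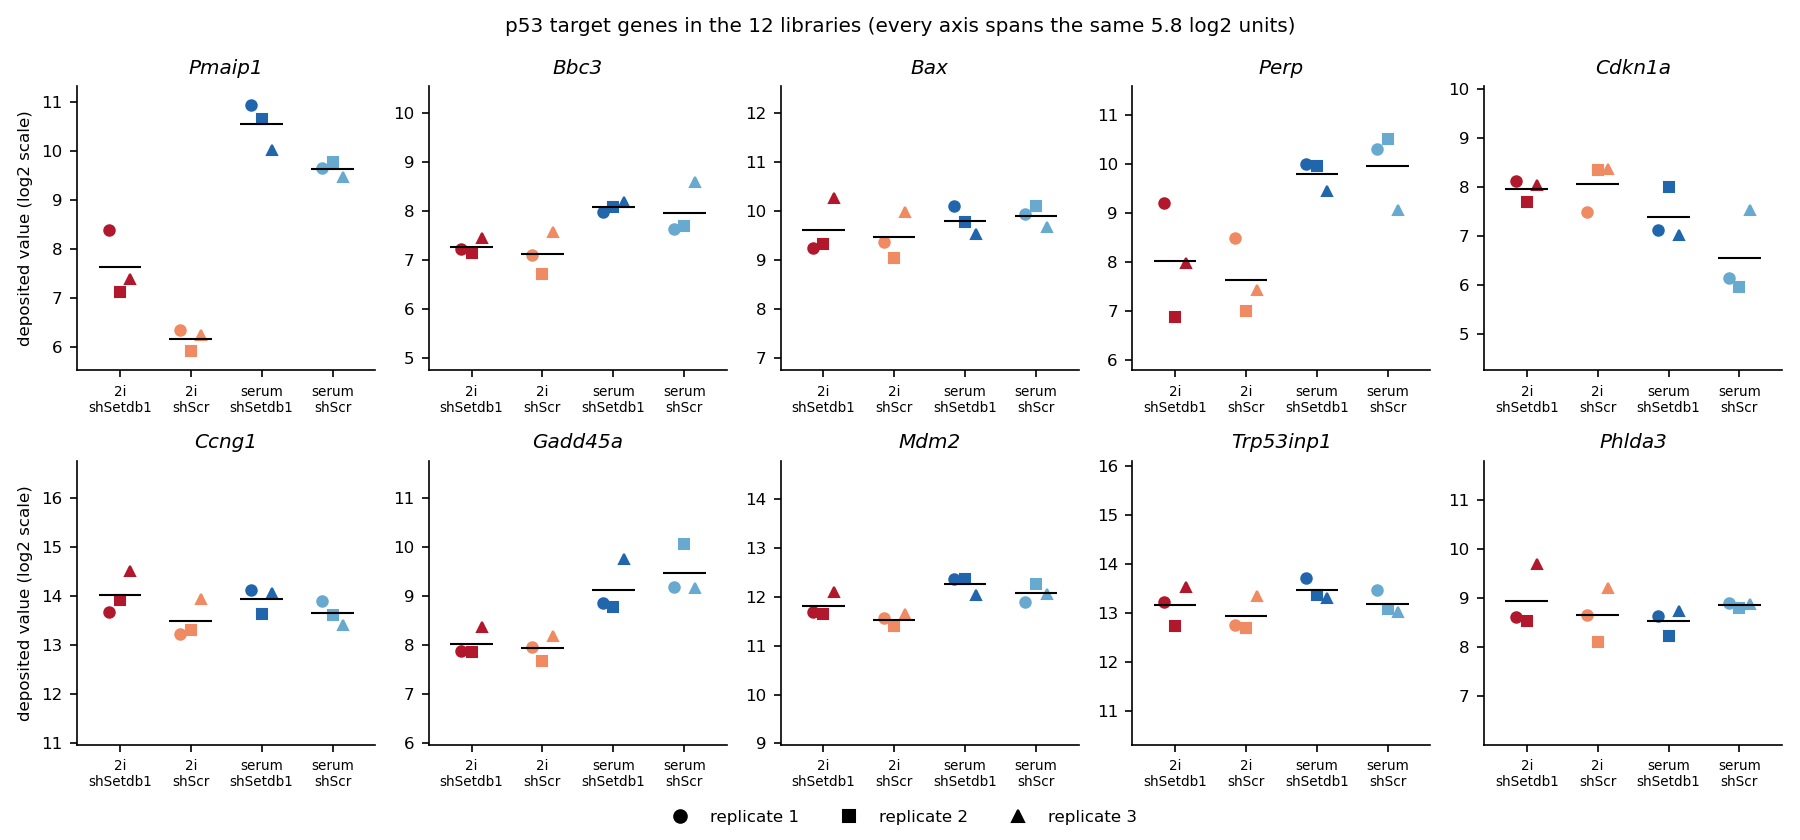
Deposited log2-scale values (vertical axis, log2 units) of the 10 genes in the 3 libraries of each group (points, shaped by replicate) with the group mean (line); every panel spans the same height. Pmaip1 forms a staircase of 4 groups that do not overlap, and Perp, Gadd45a and Bbc3 separate by medium within each hairpin. The libraries of Bax, Ccng1 and Trp53inp1 mix, as do those of Phlda3 except between hairpins in serum.

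In shScr cells, Pmaip1, Perp and Gadd45a fell in 2i relative to serum, by 21.4-fold, 5.83-fold and 3.41-fold in mean normalised reads. No member passed as higher there, although the mean of Cdkn1a was 3.49-fold higher in 2i. In shSetdb1 cells Pmaip1 alone passed, at 8.75-fold lower. The 3 members that passed in shScr cells stand beside 3.62% of all 14487 genes that passed there, 1.88% lower and 1.73% higher. The 1 member in shSetdb1 cells stands beside 3.75%, 1.6% lower and 2.15% higher. Passing means an adjusted p (Benjamini-Hochberg, over all kept genes) under 0.05 in limma. At an unadjusted p under 0.05 in limma there were 5 members in shScr cells, where 17.3% of all genes did so, with Cdkn1a among them as higher in 2i. In shSetdb1 cells there were 4, where 18.5% did. In bulk RNA, fewer cells with a transcript and less transcript per cell cannot be told apart.

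The first members encode proteins of the cell death machinery. Pmaip1 encodes Noxa, a BH3-only protein that blocks the survival protein Mcl1. It had 289.8, 97.46 and 124.4 normalised reads in shSetdb1 cells in 2i, against 1921, 1563 and 992.3 in shSetdb1 cells in serum. In shScr cells it had 43.33, 24.14 and 37.56 in 2i, against 754.4, 824.4 and 668.3 in serum. Every 2i library was below every serum library, and the groups followed one another without overlap in the order serum shSetdb1, serum shScr, 2i shSetdb1, 2i shScr. The log2 change of 2i against serum was -2.92 (SE 0.35, adjusted p = 0.000963 by limma) in shSetdb1 cells and -3.47 (SE 0.35, adjusted p = 0.00022) in shScr cells. These rest on 518 raw reads in the 3 shSetdb1 libraries and 127 in the 3 shScr libraries in 2i. Both calls held under every alternative tried. Without replicate 1 of the 2i shSetdb1 cells, the highest of its group, the fold in shSetdb1 cells was 13.4 in place of 8.75.

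Perp encodes a membrane protein of desmosomes that takes part in p53-dependent apoptosis. It had 313.4, 87.58 and 131.5 normalised reads in shScr cells in 2i, against 1217, 1403 and 485.4 in serum. The groups did not overlap, and the log2 change was -2.31 (SE 0.53, adjusted p = 0.0258 by limma). That call depended on single libraries: without replicate 1 or 2 of the serum shScr cells, or replicate 2 or 3 of the 2i shScr cells, the adjusted p was 0.102 to 0.121, and it was 0.169 with no filter on low values. Without replicate 1 of the 2i shScr cells it remained a call, with a fold of 9.45. In shSetdb1 cells Perp had 546.5, 78.17 and 210.2 normalised reads in 2i, against 972.0, 946.6 and 655.8 in serum. The groups again did not overlap, but the log2 change of -1.78 (SE 0.53) had an adjusted p of 0.0804. It was -2.37 with an adjusted p of 0.0075 by limma, and a fold of 5.95 in place of 3.08, without the high replicate 1 of the 2i shSetdb1 cells.

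Bbc3 encodes Puma, another BH3-only activator of apoptosis. It had 110.7, 100.5 and 135.5 normalised reads in shSetdb1 cells in 2i, against 211.4, 229.1 and 252.2 in serum. In shScr cells it had 98.22, 66.21 and 150.2 in 2i, against 156.3, 166.1 and 345.4 in serum. All 6 libraries in 2i were below all 6 in serum, yet neither change passed, at -0.81 (95% interval -1.51 to -0.10, adjusted p = 0.203 by limma) in shSetdb1 cells and -0.84 (-1.54 to -0.13, adjusted p = 0.194) in shScr cells. Bax, which forms the pore in the outer mitochondrial membrane, had overlapping groups. Its libraries spanned 486.2 to 1186 normalised reads in 2i and 696.1 to 1061 in serum, with changes of -0.19 (95% interval -0.90 to 0.51) in shSetdb1 cells and -0.44 (-1.14 to 0.26) in shScr cells.

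Of the cell cycle and repair members, Gadd45a fell in 2i in shScr cells, and Cdkn1a and Ccng1 did not pass. Gadd45a encodes a stress sensor that binds PCNA and acts in growth arrest and repair. It had 206.5, 164.1 and 247.6 normalised reads in shScr cells in 2i, against 542.8, 1026 and 538.9 in serum. The groups did not overlap, and the log2 change was -1.54 (SE 0.34, adjusted p = 0.021 by limma). The call was lost, with adjusted p from 0.0541 to 0.108, without replicate 2 of the serum shScr cells or without any 1 of the 2i shScr libraries, and with no filter (0.084). In shSetdb1 cells Gadd45a had 194.5, 189.8 and 287.6 normalised reads in 2i, against 421.4, 400.0 and 824.5 in serum, also without overlap. There the change of -1.10 (SE 0.34) did not pass (adjusted p = 0.0882).

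Cdkn1a encodes p21, the cyclin-dependent kinase inhibitor through which p53 stops cells in G1, and its values lay on the other side of 0 from most members. It had 140.1, 285.5 and 288.7 normalised reads in shScr cells in 2i, against 33.65, 26.65 and 144.3 in serum. Replicate 3 of the serum shScr cells was well above the other two and just above the lowest 2i library, so the groups overlapped. The log2 change of 1.53 (95% interval 0.62 to 2.43, adjusted p = 0.0623 by limma) did not pass. Without that library it was 2.02 with an adjusted p of 0.0154, and the fold was 7.9 in place of 3.49. In shSetdb1 cells Cdkn1a had 240.6, 166.5 and 221.2 normalised reads in 2i, against 99.64, 216.4 and 90.12 in serum, with a change of 0.57 (95% interval -0.34 to 1.48). Ccng1, the gene of cyclin G1, which brings protein phosphatase 2A to Mdm2, had 9515 to 23096 normalised reads in 2i and 10842 to 17667 in serum. Its changes were 0.10 (95% interval -0.65 to 0.85) in shSetdb1 cells and -0.15 (-0.90 to 0.60) in shScr cells.

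No feedback or signalling member passed between media. Mdm2, the gene of the ligase that acts on p53, had 3243, 3177 and 4347 normalised reads in shSetdb1 cells in 2i, against 5222, 5201 and 4149 in serum, which overlap. In shScr cells it had 2983, 2639 and 3148 in 2i, against 3759, 4877 and 4221 in serum, which do not. Neither change passed, at -0.44 (SE 0.26, adjusted p = 0.406) in shSetdb1 cells and -0.54 (-1.10 to 0.02, adjusted p = 0.311 by limma) in shScr cells. Trp53inp1, a stress-induced nuclear protein that promotes p53 phosphorylation, had 6596 to 11822 normalised reads in 2i and 8253 to 13485 in serum. Phlda3, a repressor of Akt at the membrane, had 233.8 to 788.1 normalised reads in 2i and 257.7 to 431.0 in serum. The 4 changes of these 2 genes lay between -0.30 and 0.41 and their 95% intervals all spanned 0.

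Counted by overlap, 4 of the 10 members (Pmaip1, Perp, Bbc3 and Gadd45a) had all shSetdb1 libraries in 2i below all of those in serum, where 10.1% of all genes did. In shScr cells 5 did, with Mdm2 added, where 12.8% of all genes did. No member lay wholly above, where 8.99% of genes did in shSetdb1 cells and 11% in shScr cells. The median log2 change of the 10 was -0.37 in shSetdb1 cells, against -0.05 over all genes, and -0.49 in shScr cells, against -0.05.

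**Figure D2:**
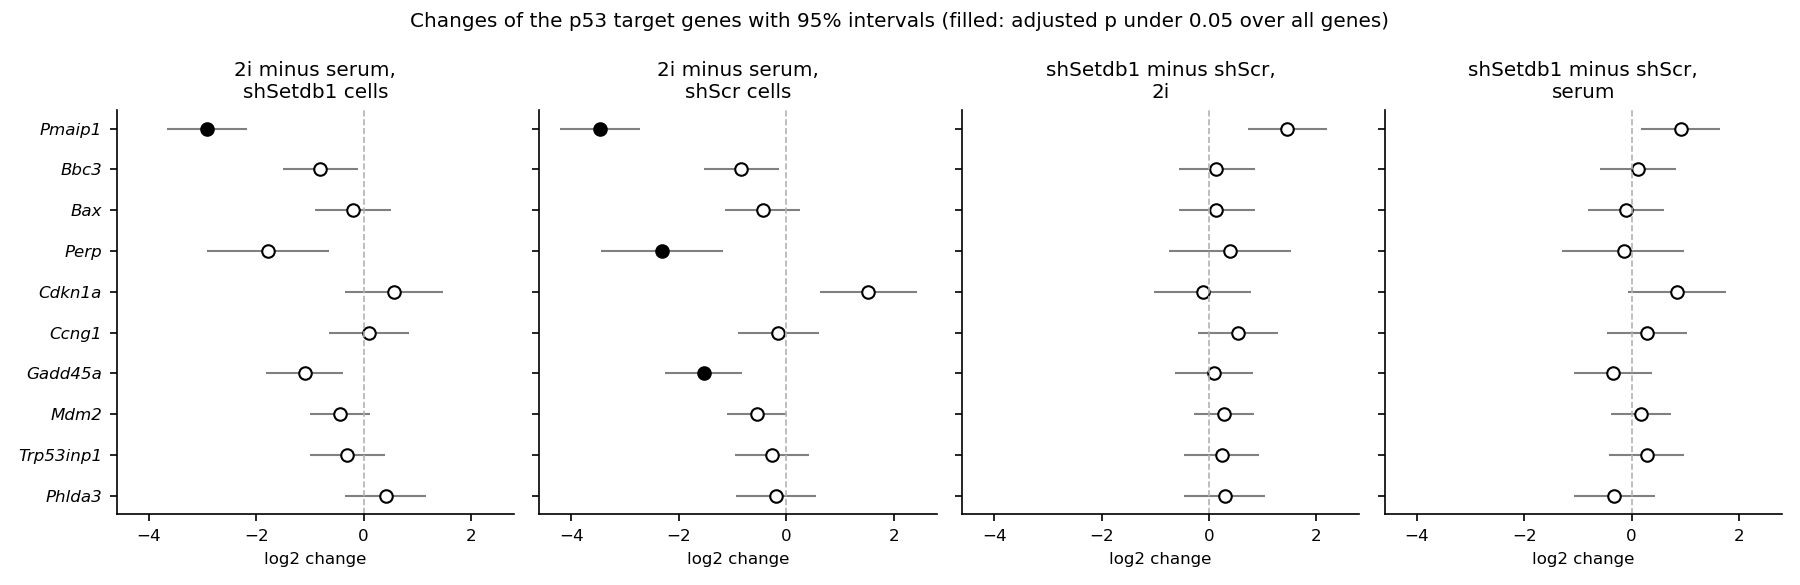
Log2 change of each gene in 4 comparisons (horizontal axis, log2 units) with its 95% interval (line); filled points have an adjusted p under 0.05 over all genes. Pmaip1 is filled in both comparisons of media, at -2.92 and -3.47, Perp and Gadd45a are filled in shScr cells, and no gene is filled in either comparison of hairpins.

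Knockdown of Setdb1 left the list below the threshold within each medium. No member passed in 2i or in serum in limma, where 1.27% of genes passed in 2i (1.21% higher, 0.0552% lower) and 0.649% in serum (0.601% higher, 0.0483% lower). At an unadjusted p under 0.05 there was 1 member in each medium, Pmaip1 both times, where 7.37% of genes did so in 2i and 5.09% in serum, and voom on recovered reads passed 0 members in each. The median log2 change of the 10 was 0.26 in 2i, against 0.01 over all genes, and 0.15 in serum, against -0.00. Fitting the replicate number as a block gave 171 genes in serum in place of 94, and the members' calls there did not change.

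Pmaip1 had every shSetdb1 library above every shScr library in both media. In 2i it averaged 170.6 ± 104 normalised reads in shSetdb1 cells and 35.01 ± 9.85 in shScr cells (SD, n = 3 each), a 4.87-fold difference with no overlap. Its log2 change there was 1.46 (SE 0.35, 95% interval 0.72 to 2.20, adjusted p = 0.0567 by limma). The fold was 3.17 without replicate 1 of the shSetdb1 cells, and the adjusted p was 0.0379, with a change of 1.71, without replicate 2. On log2 of normalised reads plus 1 the same comparison had a change of 2.13 and an adjusted p of 0.0209. In serum Pmaip1 averaged 1492 ± 468 in shSetdb1 cells and 749.0 ± 78.2 in shScr cells (SD, n = 3 each), a 1.99-fold difference with no overlap and an adjusted p of 0.714 by limma (log2 change 0.91, 95% interval 0.17 to 1.65).

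Averaged over the media, a comparison added after these values were seen, Pmaip1 rose with the hairpin against Setdb1 by 1.18 on the log2 scale (SE 0.25, 95% interval 0.66 to 1.71, adjusted p = 0.0161 by limma). It was higher in all 3 shSetdb1 libraries of each medium and was the 1 member to pass, where 1.89% of genes passed (1.76% higher, 0.131% lower). The adjusted p was 0.0511 to 0.0566 without replicate 1 or 2 of the serum shSetdb1 cells or replicate 2 of the 2i shScr cells, and 0.0861 with no filter. The difference between its changes in the media, 2i minus serum, was 0.55 (SE 0.49, 95% interval -0.50 to 1.59, adjusted p = 1 by limma). No gene of the 14487 passed that test of the difference (0%) in limma or with voom, and 0 members had an unadjusted p under 0.05, where 2.79% of genes did.

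Markers of the 2-cell stage, a state that a few embryonic stem cells enter, also differed between media in shScr cells and between hairpins in 2i. Of 9 such markers 7 were in the table. Their summed normalised reads were 5568, 590 and 2644 in shSetdb1 cells in 2i, against 228, 77 and 36 in shScr cells in 2i. In serum the sums were 3095, 14113 and 15220 in shSetdb1 cells, against 4365, 23355 and 7944 in shScr cells. In 2i they were higher in every shSetdb1 library. In serum the hairpins overlapped, and so did the media in shSetdb1 cells. Summed fibroblast and feeder markers (10 genes) were 2967 to 5883 in 2i shSetdb1 cells and 4846 to 6391 in 2i shScr cells, against 1630 to 3790 in serum shSetdb1 cells and 992 to 2226 in serum shScr cells. Of the fibroblast and feeder markers 5 were kept, and Col1a1, Col1a2, Col3a1, Dcn and Postn were under the filter. In 2i against serum, 3 of the 5 were above 0 and 2 below, with either hairpin. No marker of these 2 lists that is in the table was without reads in all libraries. The part of these markers in the differences of the p53 target genes was not tested.

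None of the remaining members passed between hairpins. Cdkn1a had 1.98 times the mean of shScr cells in shSetdb1 cells in serum, 135.4 ± 70.3 against 68.22 ± 66.0 normalised reads (SD, n = 3 each). Its log2 change of 0.84 (95% interval -0.07 to 1.75) did not pass, and the fold was 4.49 without the high replicate 3 of the shScr cells. The 1.98-fold difference of Cdkn1a in serum was close to the 1.99-fold one of Pmaip1, and their order turned with the library left out. In 2i it averaged 209.4 ± 38.4 in shSetdb1 cells and 238.1 ± 84.9 in shScr cells (SD, n = 3 each). Mdm2 averaged 3589 ± 658 in shSetdb1 cells and 2923 ± 260 in shScr cells in 2i (SD, n = 3 each), without overlap, for a change of 0.28 (95% interval -0.28 to 0.84). Phlda3 averaged 333.0 ± 66.6 in shSetdb1 cells and 419.8 ± 16.6 in shScr cells in serum (SD, n = 3 each), also without overlap, for a change of -0.32 (95% interval -1.07 to 0.43). Ccng1 averaged 17164 ± 5271 in shSetdb1 cells and 11752 ± 3440 in shScr cells in 2i (SD, n = 3 each), with overlap, for a change of 0.54 (95% interval -0.21 to 1.29).

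In 2i, Pmaip1 and Mdm2 had every shSetdb1 library above every shScr library, where 6.33% of all genes did, and no member had every one below, where 4.33% did. In serum Pmaip1 alone did so, where 6.12% did, and Phlda3 alone lay below, where 3.59% did. The changes of Perp, Bbc3, Bax, Trp53inp1 and Gadd45a lay between -0.34 and 0.39 in both media. Perp in 2i had a fold of 0.812 without replicate 1 of the shSetdb1 cells and 2.54 without replicate 1 of the shScr cells, in place of 1.57.

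Replicate 3 had the highest value for most members in 2i. It was the highest library for 7 of the 10 members in shSetdb1 cells, where 34.2% of kept genes were highest in that library, and for 8 of 10 in shScr cells, where 34.7% were. Both are the libraries with the most structural RNA of their group, and the part of that RNA in the members' values was not tested. In serum the corresponding library was highest for 3 of 10 in shSetdb1 cells (39.3% of kept genes) and 2 of 10 in shScr cells (39.8%). Phlda3 showed this most, at 349.7, 325.9 and 788.1 normalised reads in shSetdb1 cells in 2i and 363.3, 233.8 and 546.9 in shScr cells in 2i. Bax was similar, with 567.2, 595.9 and 1186 in shSetdb1 cells and 617.5, 486.2 and 973.0 in shScr cells. Pmaip1 and Perp did not share it, since replicate 1 was their highest library in both 2i groups. In 2i shScr cells the lead of replicate 3 was small for Cdkn1a (288.7 against 285.5 in replicate 2) and Mdm2 (3148 against 2983 in replicate 1). The members were measured in the same libraries, so these are not independent counts. Without both 2i libraries numbered 3, an alternative chosen after seeing the data, Perp lost its call in shScr cells (adjusted p = 0.113 by limma), while Pmaip1 and Gadd45a kept theirs.

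**Figure D3:**
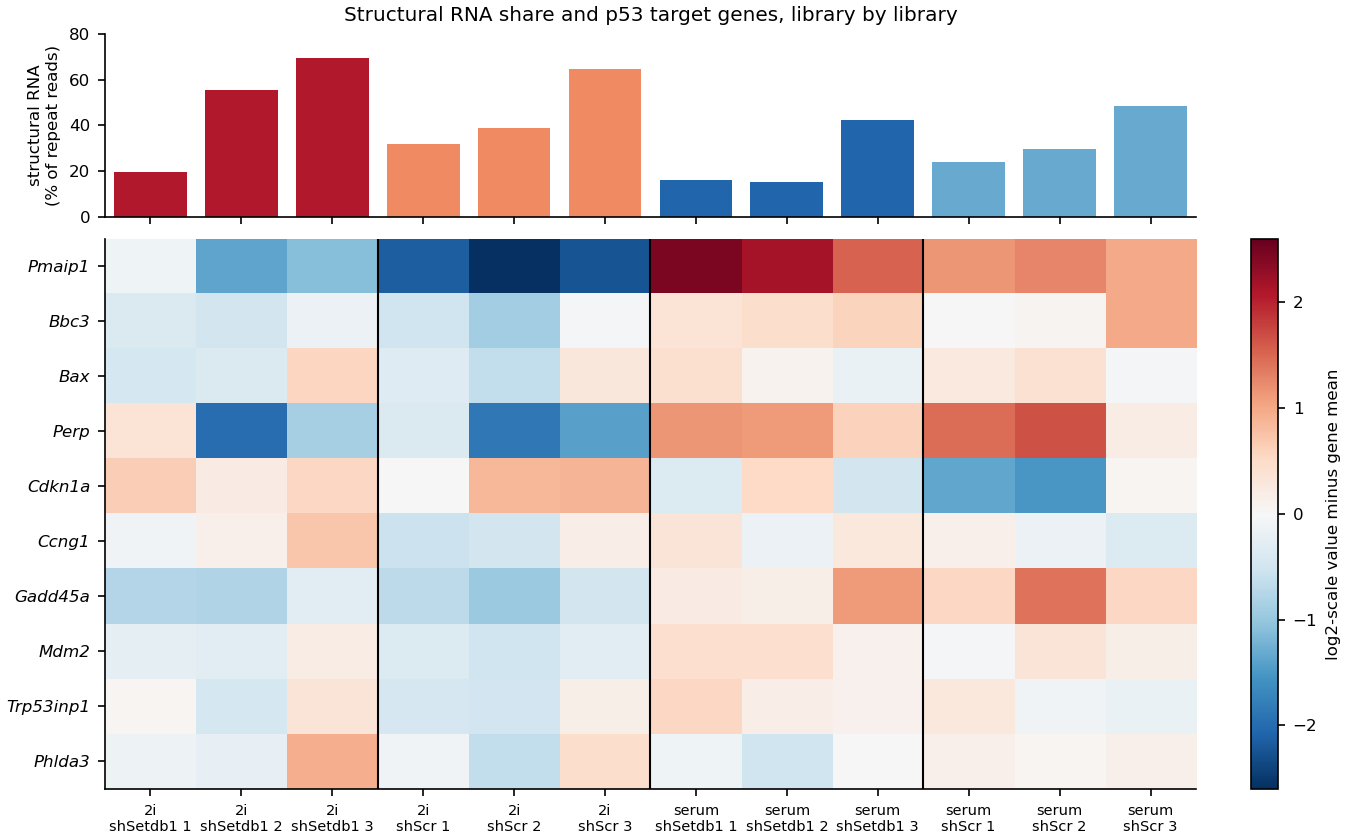
Structural RNA as a percentage of repeat reads in each library (bars) above the value of each gene in that library minus its mean over 12 libraries (colours, log2 units). Replicate 3 has the tallest bar of every group, up to 69.5%, and Bax, Ccng1 and Phlda3 have their highest 2i values there, whereas Pmaip1 and Perp do not.

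The other genes of the pathway give the setting. Trp53 itself had 330.5, 165.5 and 143.8 normalised reads in shSetdb1 cells in 2i, against 195.7, 539.3 and 118.5 in shScr cells in 2i. In serum it had 414.5, 880.1 and 127.5 in shSetdb1 cells, against 475.5, 422.9 and 236.3 in shScr cells. All groups overlapped, and its log2 changes of 2i against serum were -0.77 in shSetdb1 cells and -0.54 in shScr cells (SE 0.56, adjusted p = 0.498 and 0.7 by limma). The mouse has a processed pseudogene of Trp53, as it has of many ribosomal protein genes, and reads shared with such copies make Trp53, Rpl11 and Rps27l uncertain.

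Of 23 genes for p53 and its regulators 22 were kept, and 0 passed in limma in any of the 4 comparisons or with voom. At an unadjusted p under 0.05 there were 2 in 2i against serum for shSetdb1 cells, where 18.5% of all genes did so, 1 for shScr cells, where 17.3% did, and 0 for the hairpins in either medium. The extremes between media were Cdkn2a, the gene of the Mdm2 inhibitor Arf, at 1.58 (adjusted p = 0.143), and Aurka at -0.93 (0.171) in shSetdb1 cells. In shScr cells they were Rpl11, whose product binds Mdm2, at 1.04 (0.316), and the coactivator Ep300 at -1.22 (0.271). Between hairpins they were Rps27l at 0.67 and Hipk2 at -0.61 in 2i, and Rpl11 at 0.87 and Cdkn2a at -0.63 in serum.

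Of 35 further p53 target genes 34 were kept. In 2i against serum, 1 rose and 1 fell in shSetdb1 cells, where 2.15% of all genes rose and 1.6% fell. There 7 had an unadjusted p under 0.05 in limma, in either direction (18.5% of all genes). Tigar, a regulator of glycolysis listed under its older symbol 9630033F20Rik, rose 2.51-fold (log2 change 1.21, adjusted p = 0.043 by limma). Trp53i11 fell 5.22-fold (-2.03, adjusted p = 0.0145). Tigar lost its call in 4 of 6 fits that left out 1 library (replicates 1 and 2 of serum shSetdb1, 1 and 3 of 2i shSetdb1; adjusted p 0.055 to 0.2) and in 11 of all 16 alternatives, voom among them (0.0725). Trp53i11 lost it in 2 of 6 (replicate 2 of either group; 0.0686 to 0.0854) and with no filter on low values (0.0982).

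In shScr cells 0 of the 34 passed in limma or voom, with 7 at an unadjusted p under 0.05 (17.3% of all genes). The changes of the 34 ran from 0.93 for Ddb2, a damage recognition factor, to -1.39 for the kinase gene Plk3. The list's median log2 change was -0.30 in shSetdb1 cells and -0.16 in shScr cells, against -0.05 over all genes in both. Between hairpins 0 passed in limma or voom, with 2 in 2i (7.37% of all genes) and 1 in serum (5.09%) at an unadjusted p under 0.05. Tap1, a peptide transporter of antigen presentation, was highest in both media, at 1.02 in 2i and 0.63 in serum. Trp53i11 was lowest in 2i at -0.78 and Tigar in serum at -0.69.

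Among 23 Bcl2 family and apoptosis effector genes, of which 21 were kept, Casp8, the initiator caspase of death receptors, rose with the hairpin against Setdb1. It had 322.8, 411.2 and 622.2 normalised reads in shSetdb1 cells in 2i, against 39, 82.07 and 70.42 in shScr cells, a 7.08-fold difference (log2 change 2.25, adjusted p = 0.00224 by limma). In serum it had 171.9, 192.9 and 306.8 in shSetdb1 cells, against 26.05, 38.2 and 62.02 in shScr cells, a 5.32-fold difference (1.73, adjusted p = 0.0279). The 2i call held under every alternative. The serum call was lost with voom (adjusted p = 0.0819), with no filter (0.0966), with only the groups compared (0.0804) and in 5 of 6 fits without 1 library, all but that without replicate 3 of the shScr cells (0.0551 to 0.192). Casp8 was the 1 gene of the list to pass between hairpins, where 1.21% of all genes rose in 2i and 0.601% in serum. Hrk was lowest between hairpins, at -0.84 in 2i and -0.76 in serum, and did not pass.

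Between media, Bcl2l11, the gene of the BH3-only protein Bim, fell in 2i, by 4.18-fold in shSetdb1 cells (log2 change -1.60, adjusted p = 0.0112 by limma) and by 3.33-fold in shScr cells (-1.36, adjusted p = 0.0272). Bmf, another BH3-only gene, fell by 4.25-fold in shSetdb1 cells (-1.58, adjusted p = 0.0296). None of the other genes of the list passed there. Over all genes 1.6% fell in shSetdb1 cells and 1.88% in shScr cells. At an unadjusted p under 0.05 in limma, in either direction, there were 5 of the 21 in shSetdb1 cells (18.5% of all genes) and 7 in shScr cells (17.3%). The highest in shSetdb1 cells was Casp8 at 0.89. The Bcl2l11 call was lost in all 6 fits without 1 library in shScr cells (adjusted p 0.0656 to 0.109), and with no filter (0.0616) and without both 2i libraries numbered 3 (0.09). It was lost in 3 of 6 in shSetdb1 cells (replicates 1 and 2 in serum, 2 in 2i; 0.0509 to 0.0666) and with only the groups compared (0.0777). Bmf lost its call in 4 of 6 (each serum shSetdb1 library and replicate 3 in 2i; 0.0748 to 0.0932) and in 8 of all 16 alternatives, voom among them (0.0738).

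Of 16 other cell cycle genes (cyclin-dependent kinase inhibitors, G1 cyclins, Rb and Gadd45 families), all kept, 3 fell in 2i in shSetdb1 cells and 2 in shScr cells, and 0 rose. Over all genes 1.6% fell and 2.15% rose in shSetdb1 cells, and 1.88% fell and 1.73% rose in shScr cells. At an unadjusted p under 0.05 in limma, in either direction, there were 5 in shSetdb1 cells (18.5% of all genes) and 8 in shScr cells (17.3%). Cdkn1c, which encodes the p57 inhibitor, had 115.3, 23.35 and 22.12 normalised reads in shSetdb1 cells in 2i, against 713.4, 703.2 and 213.8 in serum (10.1-fold lower, log2 change -2.70, adjusted p = 0.00767 by limma). In shScr cells it had 52, 20.69 and 17.61 in 2i, against 725.1, 999.4 and 381.7 in serum (23.3-fold lower, -3.44, adjusted p = 0.00224). The inhibitor genes Cdkn1c and Cdkn1a lay on opposite sides of 0 in both comparisons of media. Without replicate 1 in 2i the Cdkn1c folds were 23.9 in shSetdb1 cells and 36.7 in shScr cells, and without replicate 2 of the serum shSetdb1 cells its adjusted p there was 0.0602. That call was also lost with voom (0.0592) and with no filter (0.0816).

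The cyclin gene Ccne1 fell 3.65-fold in shSetdb1 cells (log2 change -1.82, adjusted p = 0.00697 by limma) and held in all 6 fits without 1 library. Gadd45g, a relative of Gadd45a, fell 10.9-fold there (-2.30, adjusted p = 0.0387). Its call was lost in 4 of 6 (replicates 1 and 2 in serum, 2 and 3 in 2i; adjusted p 0.0571 to 0.215) and in 9 of all 16 alternatives, voom among them (0.138), and its fold was 5.97 without replicate 2 in serum. The retinoblastoma gene Rb1 fell 2.64-fold in shScr cells (-1.30, adjusted p = 0.0494), a call lost in all 6 such fits (0.0853 to 0.172) and in 13 of all 16 alternatives, voom among them (0.0548). Ccnd1 was highest between media, at 1.37 in shSetdb1 cells and 1.19 in shScr cells, and did not pass. Between hairpins 0 of the 16 passed in limma or voom, with 2 at an unadjusted p under 0.05 in each medium (7.37% of all genes in 2i, 5.09% in serum). Gadd45g was highest, at 1.17 in 2i and 1.69 in serum, and Ccnd1 lowest, at -1.01 and -1.19 in the same order.

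Mitotic genes that p53 is known to lower through p21 and the DREAM complex form the last list, of 21 genes, all kept. In 2i against serum 21 of 21 were below 0 in shSetdb1 cells, with a median log2 change of -0.60, and 20 of 21 in shScr cells, with a median of -0.27, against -0.05 over all genes. That median says only that more of all genes lay below 0 than above it, and their exact share was not computed. The genes of the list were measured in the same libraries, so these are not independent counts. None passed in limma or voom in any of the 4 comparisons. At an unadjusted p under 0.05 there were 8 for media in shSetdb1 cells (18.5% of all genes), 0 for media in shScr cells (17.3%), 2 for the hairpins in 2i (7.37%) and 0 in serum (5.09%). The proliferation marker Mki67 was lowest between media, at -1.18 in shSetdb1 cells and -0.82 in shScr cells, and Cenpa (-0.05) and Foxm1 (0.01) were highest. The medians between hairpins were -0.47 in 2i and -0.08 in serum, where the extremes were Cdc25b at -0.98 and Cenpa at 0.31 in 2i, and Ccna2 at -0.44 and Cenpa at 0.28 in serum.

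For the difference between the hairpin changes in the media, 2i minus serum, 0 genes of these 5 lists passed in limma or voom, and 0 had an unadjusted p under 0.05. The extremes were Tigar at 0.84 and Trp53i11 at -0.95 among the further targets, and Rps27l at 1.20 and Hipk2 at -0.83 among the regulators. Bik, a BH3-only gene, was at 1.10 and the survival gene Bcl2l2 at -0.76. The cyclin genes Ccnd2 and Ccng2 were at 1.27 and -1.08, and the mitotic genes Cdk1 and Foxm1 at 0.21 and -0.88.

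**Figure D4:**
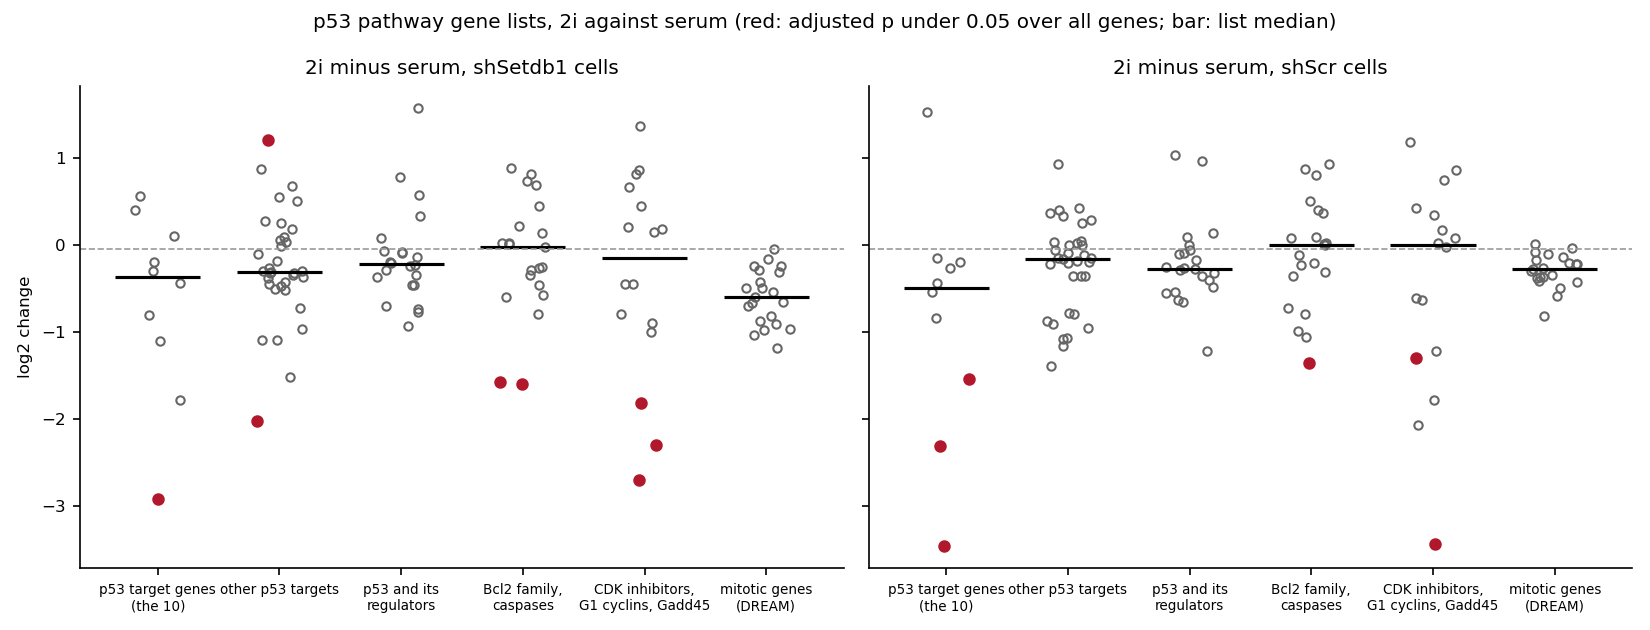
Log2 change of 2i against serum (vertical axis, log2 units) for each kept gene of the 6 lists in shSetdb1 cells and in shScr cells; red points have an adjusted p under 0.05 over all genes, bars are list medians and the dashed line is the median of all genes. Among the 10 p53 target genes 1 point is red in shSetdb1 cells and 3 in shScr cells, and the mitotic genes lie at or below 0.01.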

How the data were processed

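The 12 directional libraries were prepared after removal of ribosomal RNA, per the labels' protocols. The authors deposited variance-stabilised values on a log2 scale for genes and for repeat families. Trimming and alignment tools listed in the submitters' processing notes are Trim Galore (0.3.3) and TopHat2 (2.0.9), along with the package DESeq2, no version, and build mm9. The sources used here do not give the counting tool, annotation or use of strand, so overlapping and antisense genes and near-identical copies are uncertain. Inverting the transformation gave whole reads (100% of values within 0.01 read), from which depth, normalised reads (reads divided by size factor) and folds of group means were computed. Counts of reads cover counting error only. Lengths for reads per kilobase are merged exons of the GRCm38 annotation.

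The deposited values were fitted with limma 3.58.1 in R 4.3.3 (1 mean per group, 8 residual degrees of freedom, empirical Bayes with trend, two-sided). Genes with a mean at least 0.5 above the lowest value of 4.4522 were kept, and p-values were adjusted over all of them within a comparison. For genes with few reads this scale shrinks log2 changes. The fit was tested on simulated data with a common spread for all genes and independent libraries. That test does not cover libraries that deviate together. Same-numbered serum libraries deviated together (correlations over genes of 0.58, 0.23 and 0.51 between shSetdb1 and shScr). The labels do not say whether the numbers mark pairs, and the main fit used no pairing.

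Members and lists were chosen with earlier results of these data known. Named genes are the 10 members, Setdb1, Trp53 and, from each other list, every gene that passed and the largest and smallest change in each comparison but the averaged one; 1 result that this rule takes in is not reported here. Alternatives were no or a stricter filter, voom, other scalings and variance settings, replicate blocks, only the groups compared, and leaving out libraries.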

Additional observations from a re-analysis of the deposited data

How the results depend on the processing

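Both medium calls of Pmaip1 held under every alternative. Of 1090 alternatives for the 60 member results, 1014 kept direction and side of the threshold, 52 turned sign, 15 lost and 9 gained a call; the cause was not tested. Genes passing between hairpins in 2i (184) were 104 unfiltered, 114 with voom, 88 with only the groups compared, 321 with a replicate block, 425 with a block within medium, 68 without 2i libraries 3 and 99 to 253 without 1 library. In serum (94) they were 55 unfiltered, 171 and 211 with the blocks and 37 to 69. Averaged (274) they were 494 and 630 with the blocks and 210 to 342. For the difference of changes (0) they were 1 unfiltered, 2 with the block within medium and 0 to 1. For media in shSetdb1 cells (543) they were 199 unfiltered, 240 with voom, 361 on log2 of reads plus 1, 195 with only the groups compared, 1583 with the block, 229 without 2i libraries 3 and 144 to 1522. In shScr cells (524) they were 143 unfiltered, 1351 with the block, 217 without 2i libraries 3 and 171 to 466. Members passing between hairpins in 2i (0) were 1 on log2 of reads plus 1 and with either block (Pmaip1, adjusted p 0.00998 and 0.0063 by limma), and 0 to 1 without 1 library. Averaged (1), 0 passed unfiltered and 0 to 1 without 1 library. Media gave 3 in shSetdb1 cells with the block, Perp (adjusted p 0.011 by limma) and Gadd45a (0.0312) added (1 as reported; 1 to 2 without 1 library). In shScr cells Cdkn1a passed as higher in 2i with the block (1.53, adjusted p 0.0234 by limma), and 1 member passed unfiltered (3 as reported; 1 to 4). In serum and for the difference of changes 0 to 0 passed. In the 2i hairpin and medium comparisons not all same-numbered libraries deviated together. The correlations between hairpins in 2i were 0.46, 0.06 and 0.52, and whether these libraries are pairs is not known. Other changes near 0 turned sign: Trp53 in serum was -0.01 after centring and on log2 of reads plus 1; Bax averaged was -0.02 centred, -0.00 with voom and -0.01 without 2i libraries 3; Bbc3 and Ccng1 differences were -0.01 and -0.03 after quantile normalisation; Ccng1 between media in shSetdb1 cells was -0.10 quantile-normalised and -0.14 without 2i libraries 3. Without 1 library at a time, these small changes spanned 0. Between hairpins in 2i, Perp ran from -0.20 to 0.96, Cdkn1a -0.40 to 0.03, Bbc3 -0.07 to 0.36, Bax -0.18 to 0.40, Gadd45a -0.07 to 0.22, Phlda3 -0.09 to 0.56 and Trp53 -0.62 to 0.32. In serum Perp ran from -0.60 to 0.12, Bbc3 -0.06 to 0.43, Bax -0.25 to 0.04 and Trp53 -0.55 to 0.68. Averaged, Perp ran from -0.18 to 0.40, Bax -0.14 to 0.15, Gadd45a -0.28 to 0.02, Phlda3 -0.20 to 0.12 and Trp53 -0.38 to 0.23. For the difference of changes, Perp ran from -0.05 to 1.11, Mdm2 -0.04 to 0.19, Bbc3 -0.28 to 0.25, Bax -0.08 to 0.51, Trp53inp1 -0.22 to 0.18, Setdb1 -0.18 to 0.42 and Trp53 -0.89 to 0.34. Between media, Phlda3 in shScr cells ran from -0.47 to 0.08 and Ccng1 in shSetdb1 cells from -0.14 to 0.28.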
